A study of Rattus norvegicus with 50 samples.

Results

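Airway mucins and secretoglobins are the main products of the secretory cells that line the conducting airways, and 10 of their genes were followed here in the lungs of rats that inhaled nickel subsulfide (Ni3S2). The list held 3 mucins (Muc5b, Muc5ac and Muc1), the secreted protein Bpifb1, the mucin-folding enzyme Agr2, the transcription factor Spdef, the secretoglobins Scgb1a1, Scgb3a1 and Scgb3a2, and the receptor Pigr. It is a list of gene names with no measured value in its rule, drawn up with earlier results of these data known. Of the 10 genes, 8 were measured among the 13438 genes of the array table, each by 1 probe set, and Scgb3a2 and Pigr were not analysed here because no probe set carried their symbol alone.

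Expression was measured on 50 Affymetrix arrays of total RNA from the distal airway tissue of the right caudal lung lobe of male Fischer F344 rats, 7 to 8 weeks old on receipt. The rats breathed Ni3S2 aerosol at 0.04, 0.08, 0.15 or 0.60 mg/m3, which carried about 0.03, 0.06, 0.11 or 0.44 mg of nickel per m3, or were controls at 0 mg/m3. They were exposed for 6 hours daily, 5 days in each week, and were sampled after 1 week (5 days of exposure) or 4 weeks (20 such days), with controls for each time. Each of the 10 groups had 13 animals, and the 5 with the best RNA among the 8 kept for expression were put on arrays, so n = 5 in every group and an array stands for 1 animal's sample.

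In the airway, mucins are long glycoproteins packed in granules and released to form the gel that traps inhaled particles. Muc5b and Muc5ac are the gel-forming mucins, Muc1 is anchored in the cell membrane, and Agr2 is a protein disulfide isomerase of the endoplasmic reticulum that mucin assembly needs. Spdef is a transcription factor that drives goblet cell differentiation. Secretoglobins are small secreted proteins, and Scgb1a1, the club cell secretory protein, is the textbook marker of club cells, the dome-shaped secretory cells of the small airways.

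Promoter sequences are shown for 4 genes. Agr2 and Bpifb1 rose at both exposure times, and Scgb1a1 and Scgb3a1 were called at no concentration in the unweighted model of the deposited values. Scgb1a1 was read at the top of the scale, where changes may be compressed, and some other settings called it lower. The sequences come from RefSeq on the rat build GRCr8. They run from 250 bases before the annotated start site to 50 bases after it, 5′ to 3′ on the strand of the gene. Of the 8 measured genes, 6 matched that table, and Muc5b and Muc5ac did not. Capitals mark matches to 7 short motifs, searched on both strands. They were the forkhead box, read as TGTTTAC, and the hypoxia response element, whose core is ACGTG. The AP-1 site of Fos and Jun factors was searched as TGAGTCA, and the C/EBP site as TTGCNNAA with any base at N. The STAT site was TTCNNNGAA, the site of the lung factor NKX2-1 was taken as CAAGTG, and the TATA box of the basal promoter was TATAAA. The Agr2 promoter is on chromosome 6 (chr6:58435658-58435957, plus strand), that of Bpifb1 on chromosome 3 (chr3:163132901-163133200, plus strand), that of Scgb1a1 on chromosome 1 (chr1:215409637-215409936, minus strand) and that of Scgb3a1 on chromosome 10 (chr10:34468916-34469215, plus strand).
Agr2: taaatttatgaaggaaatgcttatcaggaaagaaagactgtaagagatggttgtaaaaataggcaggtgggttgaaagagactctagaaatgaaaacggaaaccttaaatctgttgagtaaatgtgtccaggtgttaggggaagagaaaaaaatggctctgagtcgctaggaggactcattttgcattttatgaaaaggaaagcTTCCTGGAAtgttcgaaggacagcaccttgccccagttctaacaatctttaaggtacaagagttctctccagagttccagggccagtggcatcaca
Bpifb1: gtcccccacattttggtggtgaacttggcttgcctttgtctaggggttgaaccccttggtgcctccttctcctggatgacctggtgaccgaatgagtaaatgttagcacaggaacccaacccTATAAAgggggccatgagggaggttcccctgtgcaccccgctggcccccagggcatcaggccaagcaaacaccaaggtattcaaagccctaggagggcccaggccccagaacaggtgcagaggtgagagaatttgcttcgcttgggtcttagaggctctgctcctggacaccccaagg
Scgb1a1: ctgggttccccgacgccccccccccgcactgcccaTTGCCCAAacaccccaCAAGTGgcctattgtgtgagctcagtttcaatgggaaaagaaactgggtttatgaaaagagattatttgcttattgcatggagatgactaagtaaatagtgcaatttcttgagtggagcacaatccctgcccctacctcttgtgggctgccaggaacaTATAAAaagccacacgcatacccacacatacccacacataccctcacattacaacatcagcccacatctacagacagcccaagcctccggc
Scgb3a1: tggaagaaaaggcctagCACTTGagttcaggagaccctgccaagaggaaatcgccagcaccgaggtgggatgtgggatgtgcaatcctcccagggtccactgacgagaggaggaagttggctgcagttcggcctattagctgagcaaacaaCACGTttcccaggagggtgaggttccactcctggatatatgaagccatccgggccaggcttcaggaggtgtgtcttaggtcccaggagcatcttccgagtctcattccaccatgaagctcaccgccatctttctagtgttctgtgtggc

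The Agr2 window held 1 STAT match, at position -46 from the start site, and its GC content was 41.0%. The Bpifb1 window, with a GC content of 57.3%, held only a TATA box match, at position -128. Scgb1a1 held a C/EBP match at -215, an NKX2-1 match at -199 and a TATA box match at -41. Scgb3a1 held an NKX2-1 match at -233 and a hypoxia response element match at -99, both on the reverse strand. No match overlapped another. The same letters occur in many promoters: among 33469 promoters of the same length, 14.1% held the NKX2-1 letters, 10.6% those of C/EBP, 8.87% those of STAT, 19.3% the hypoxia response element, 14.2% the TATA box, 4.63% AP-1 and 3.78% the forkhead box. A match is a description of letters and not of a bound factor, and no motif of the 7 was found in both Agr2 and Bpifb1.

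Marker genes of airway and alveolar epithelium were read in the tissue, with no reference tissue to set them against. The mean of 15 ciliated cell genes lay between 9.31 and 9.87 log2 units on every array of the 4-week groups and between 9.34 and 9.92 at 1 week, and that of 14 alveolar type 2 cell genes (Muc1 left out of their list) between 11.08 and 11.61 on all arrays. Other tissue moved with the groups. The mean of 13 smooth muscle genes was 8.86 in the 1-week controls and 8.16 at 0.60 mg/m3, and 12 heart muscle genes had a mean of 6.35 and 7.72 in those groups, with heart muscle means of 4.44 to 7.86 among the 1-week controls. At 4 weeks the heart muscle means were 7.50 in controls, 9.46 at 0.04, 8.97 at 0.08, 7.78 at 0.15 and 7.48 at 0.60 mg/m3. On the first principal component of all genes (63.5% of the variance) controls and rats at 0.04 mg/m3 lay apart at 1 week, with means of -58.0 and -76.5, against -27.1 at 0.08 mg/m3, 2.52 to 8.56 in the 2 highest 1-week groups and 20.4 to 38.2 in the 4-week groups. From the lowest concentration to the highest, 26.9%, 48.6%, 67.4% and 65.1% of all genes were called at 1 week, against 12.9%, 8.54%, 3.50% and 17.4% at 4 weeks. In bulk tissue, fewer cells of a type and less RNA per cell cannot be told apart.

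Most of the mucous genes were higher in rats that inhaled the highest concentration, and no change of the secretoglobins was called in the unweighted model of the deposited values. After 4 weeks at 0.60 mg/m3, 6 of the 8 measured genes rose and 0 fell: Muc5b 3.8-fold, Bpifb1 1.95-fold, Agr2 1.42-fold, Spdef 1.39-fold and Muc1 and Muc5ac 1.33-fold each. Muc5ac was read near the bottom of the scale, ranked 11348 of 13438 genes by its mean, and no detection call was used here, so its fold is that of the probe set's reading; a model without the dimmest 25% of genes did not test it and called 5 members. Among all genes 9.47% were called higher and 7.90% lower in that comparison, and the members' median change was 0.44 log2 units beside -0.0046 over all genes. After 1 week at 0.60 mg/m3, 4 of 8 rose (Muc5b, Agr2, Bpifb1 and Muc5ac) and 0 fell, in a comparison where 32.8% of all genes were called higher and 32.3% lower; there the median was 0.20, beside -0.01 over all genes. Scgb1a1 and Scgb3a1 were called at no concentration at either time in that model. Scgb1a1 was read at the top of the scale, where changes may be compressed, and some other settings called it lower. A gene was called at a Benjamini-Hochberg adjusted p under 0.05 over 13438 genes in limma, and changes are log2 differences from the controls of the same time, with the standard error of the model.

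**Figure D1:**
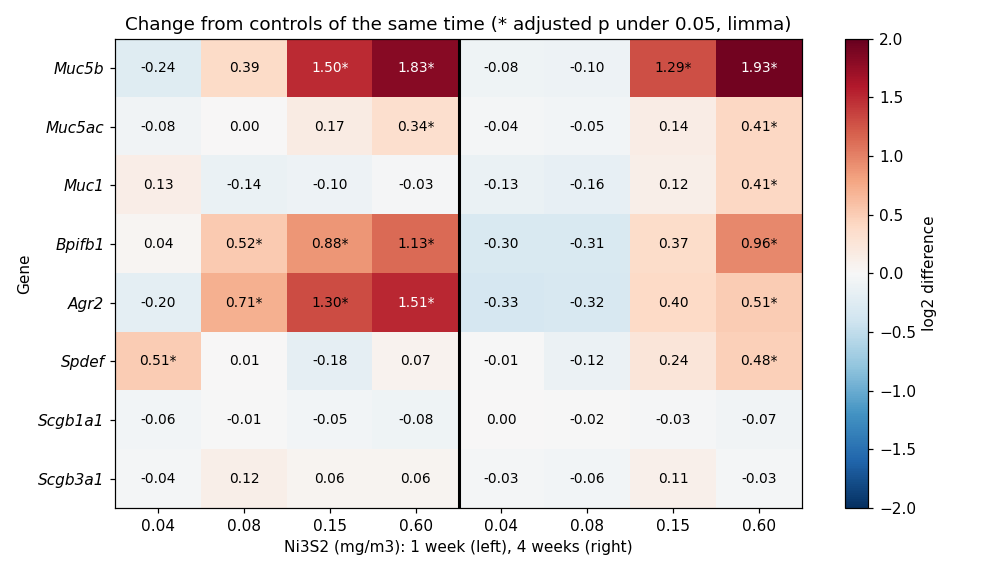
Change of each measured gene (rows) from the controls of the same time, in log2 units, for each Ni3S2 concentration at 1 week (left) and 4 weeks (right); colour and printed value give the change and an asterisk marks an adjusted p under 0.05 in limma. Called changes are all above 0, and the rows of Scgb1a1 and Scgb3a1 hold none.

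Fewer genes were called at the lower concentrations. After 4 weeks, 1 of 8 (Muc5b) rose at 0.15 mg/m3 and 0 of 8 were called at 0.08 and at 0.04 mg/m3 in limma (2 and 1 at an unadjusted p under 0.05, all of them lower: Agr2 at both and Muc1 at 0.08 mg/m3). Of all genes, 3.50%, 8.54% and 12.9% were called in these comparisons, so that few calls among 8 genes do not set the members apart. After 1 week, 3 of 8 rose at 0.15 mg/m3 (Muc5b, Agr2 and Bpifb1). At that time 2 of 8 rose at 0.08 mg/m3 (Agr2 and Bpifb1) and 1 of 8 at 0.04 mg/m3 (Spdef). Of all genes, 33.8%, 25.1% and 15.1% were called higher there (67.4%, 48.6% and 26.9% in either direction). These 1-week counts do not set the members apart either. In all, 17 of 64 changes against controls were called, in comparisons that called 3.50% to 67.4% of all genes.

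Muc5b, the gel-forming mucin that dominates the normal airway surface, changed most. At 4 weeks the control arrays read 9.01, 10.78, 10.76, 10.56 and 10.58 (10.34 ± 0.75, SD, n = 5), and those at 0.60 mg/m3 read 12.27, 12.43, 11.93, 12.60 and 12.08 (12.26 ± 0.26). The 0.15 mg/m3 arrays, at 11.36, 11.72, 11.58, 11.66 and 11.81, lay between these groups with no overlap on either side. At 0.08 mg/m3 the values were 10.27, 9.66, 10.44, 10.55 and 10.27 and at 0.04 mg/m3 they were 10.55, 10.79, 10.21, 9.32 and 10.41, and both groups overlapped the controls. The change was 1.93 ± 0.29 log2 units (SE) at 0.60 mg/m3 (adjusted p = 2.8e-06 in limma) and 1.29 ± 0.29 at 0.15 mg/m3 (2.44-fold, adjusted p = 0.00448). Muc5b ranked 29 of 13438 genes by the size of its rise at 0.60 mg/m3 and 27 at 0.15 mg/m3.

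The 1-week arrays gave a like order. Controls read 10.62, 10.37, 11.02, 11.33 and 10.37, the 0.60 mg/m3 arrays 12.76, 12.70, 12.64, 12.27 and 12.48, and the 0.15 mg/m3 arrays 11.28, 12.51, 12.60, 12.51 and 12.29. Every array at 0.60 mg/m3 lay above every control, whereas 1 array at 0.15 mg/m3 fell within the control range. Muc5b was higher by 1.83 ± 0.29 at 0.60 mg/m3 (3.55-fold, adjusted p = 5.27e-07) and 2.82-fold higher at 0.15 mg/m3 (95% interval 0.90 to 2.09 log2 units, adjusted p = 1.73e-05). At 0.08 mg/m3 it read 11.08, 10.47, 11.35, 11.31 and 11.44, 0.39 above controls (adjusted p = 0.287), and at 0.04 mg/m3 10.89, 10.60, 9.17, 11.19 and 10.66, 0.24 below them on the log2 scale, a change of -0.24 (adjusted p = 0.546). The change at 4 weeks minus that at 1 week was 0.10 at 0.60 mg/m3 (95% interval -0.74 to 0.94) and -0.21 at 0.15 mg/m3 (-1.05 to 0.63), neither of which was called.

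**Figure D2:**
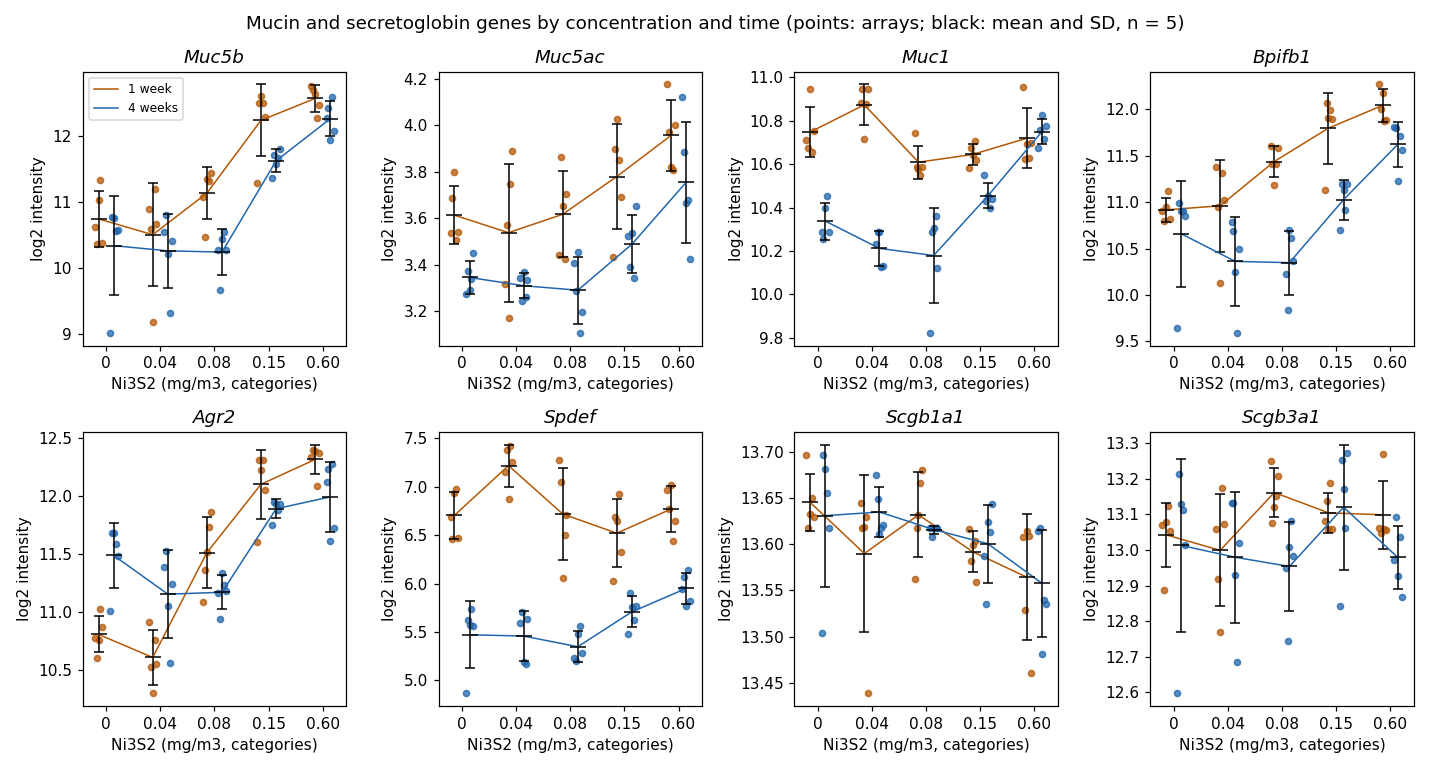
Log2 intensity of the 8 measured genes (one panel each, with its own axis) against Ni3S2 concentration, shown as categories; points are arrays, coloured by 1 or 4 weeks, and black marks give the group mean and SD (n = 5). Muc5b arrays at 0.60 mg/m3 lie between 11.93 and 12.76, above every control, while Scgb1a1 arrays lie between 13.44 and 13.70 in all groups.

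Between neighbouring concentrations, the step in Muc5b was from 0.08 to 0.15 mg/m3. It measured 1.11 ± 0.29 at 1 week (adjusted p = 0.00216) and 1.39 ± 0.29 at 4 weeks (adjusted p = 0.000949, no overlap). From 0.15 to 0.60 mg/m3 it was 0.33 at 1 week (adjusted p = 0.863) and 0.64 at 4 weeks (adjusted p = 0.327), the latter without overlap between the groups, and from 0.04 to 0.08 mg/m3 it was 0.63 (adjusted p = 0.0592) and -0.02 (adjusted p = 0.999). Across 0.08 to 0.15 mg/m3 at 4 weeks, 4 of 8 members were called higher (Muc5b, Agr2, Bpifb1 and Muc1) where 18.6% of all genes were called. The heart muscle mean differed between those same 2 groups, 8.97 against 7.78, and the smooth muscle mean was 8.73 against 7.75, and their part in the result was not tested. At 1 week 46.8% of genes were called for that step, among them 2 members (Muc5b and Agr2).

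At 4 weeks the other steps gave fewer calls, whereas at 1 week the step from 0.04 to 0.08 mg/m3 gave more. From 0.15 to 0.60 mg/m3, 1 member (Muc1) was called at 4 weeks, where 2.87% of genes were called, and 0 at 1 week, where 0.0149% were (0 also at an unadjusted p under 0.05 in limma). From 0.04 to 0.08 mg/m3, 0 members were called at 4 weeks, adjusted or not (0.00744% of genes), while at 1 week 2 rose (Agr2 and Bpifb1) and 2 fell (Muc1 and Spdef) among the 62.9% of genes called.

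Bpifb1 encodes a secreted protein of the bactericidal/permeability-increasing fold that is found in airway mucus. At 4 weeks its controls read 9.64, 10.99, 10.91, 10.91 and 10.85 and the 0.60 mg/m3 arrays read 11.81, 11.80, 11.23, 11.72 and 11.56. The groups did not overlap, and the change was 0.96 ± 0.21 (adjusted p = 0.000877). At 0.15 mg/m3 the arrays read 10.70, 11.19, 11.13, 10.92 and 11.19, 0.37 above controls with overlap (adjusted p = 0.472). Those at 0.08 mg/m3 (10.22, 9.84, 10.70, 10.61 and 10.36) and at 0.04 mg/m3 (10.79, 10.69, 10.25, 9.59 and 10.49) were 0.31 and 0.30 lower in the mean, changes of -0.31 and -0.30 that were not called.

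At 1 week Bpifb1 was higher from 0.08 mg/m3 upward. Controls read 10.90, 10.80, 10.95, 11.12 and 10.81, and the 0.08 mg/m3 arrays 11.61, 11.41, 11.18, 11.41 and 11.58. The 0.15 mg/m3 arrays read 11.13, 12.06, 11.90, 12.00 and 11.89 and the 0.60 mg/m3 arrays 12.27, 12.00, 12.18, 11.88 and 11.89. None of these 3 groups overlapped the controls, although the lowest array at 0.15 mg/m3 lay next to the highest control. Bpifb1 rose by 0.52 ± 0.21 at 0.08 (adjusted p = 0.0407), 0.88 at 0.15 (adjusted p = 0.000345) and 1.13 at 0.60 mg/m3 (adjusted p = 1.09e-05). The call at 0.08 mg/m3 was lost without any 1 of 8 of the 10 arrays compared (control replicates 1, 2, 3 or 5, or exposed replicates 1, 2, 4 or 5), at adjusted p of 0.0537 to 0.0839.

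Agr2 showed its larger change at 1 week. Controls read 10.78, 10.60, 10.76, 11.03 and 10.87 (10.81 ± 0.16), the 0.08 mg/m3 arrays 11.08, 11.36, 11.52, 11.73 and 11.87, the 0.15 mg/m3 arrays 11.61, 12.32, 12.22, 12.32 and 12.06, and the 0.60 mg/m3 arrays 12.34, 12.40, 12.39, 12.09 and 12.37. All 15 of these exposed arrays lay above every control. The rise was 0.71 ± 0.15 at 0.08, 1.30 ± 0.15 at 0.15 and 1.51 ± 0.15 at 0.60 mg/m3 (1.63-, 2.46- and 2.85-fold), with adjusted p of 0.000173, 4.32e-10 and 1.04e-11. At 0.04 mg/m3 (10.91, 10.52, 10.30, 10.76 and 10.55) the change of -0.20 was not called.

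At 4 weeks Agr2 started higher. Its controls read 11.01, 11.68, 11.68, 11.58 and 11.49 (11.49 ± 0.28), 0.68 above the 1-week controls (adjusted p = 0.000101), and the 0.60 mg/m3 arrays read 12.12, 12.23, 11.62, 12.28 and 11.72. That rise of 0.51 ± 0.15 was called (adjusted p = 0.0157) with overlap between the groups, and was not called without control replicate 1 (0.39, adjusted p = 0.0882), or without 0.60 mg/m3 replicate 2 (0.45, adjusted p = 0.054) or 4 (0.44, adjusted p = 0.0568). At 0.15 mg/m3 all 5 arrays (11.75, 11.95, 11.94, 11.89 and 11.93) lay above the controls, yet the change of 0.40 was not called (adjusted p = 0.162). The 0.04 and 0.08 mg/m3 groups, at 11.15 and 11.17 in the mean, were below the controls by an amount that was not called (-0.33 and -0.32).

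The size of the Agr2 change differed between the times. The change at 4 weeks minus that at 1 week was -1.01 ± 0.22 at 0.60 mg/m3 (adjusted p = 0.000108), -0.89 at 0.15 (adjusted p = 0.000455) and -1.02 at 0.08 mg/m3 (adjusted p = 0.000176). Bpifb1 had such a difference at 0.08 mg/m3 (-0.83 ± 0.30, adjusted p = 0.0227) and Muc1 one of the opposite sign at 0.60 mg/m3. Of all genes, 12.0%, 44.4%, 56.8% and 56.7% were called in these contrasts from the lowest concentration to the highest, beside 0, 2, 1 and 2 of the 8 members. When the 4-week controls served as the reference, the 1-week Agr2 change was 0.83 at 0.60 mg/m3 and 0.02 at 0.08 mg/m3 (adjusted p = 0.904).

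Muc1, the membrane mucin of airway and alveolar epithelium, rose at 4 weeks and at 0.60 mg/m3 alone. Its 4-week controls read 10.29, 10.26, 10.40, 10.46 and 10.29, and the 0.60 mg/m3 arrays 10.68, 10.76, 10.82, 10.71 and 10.77, without overlap. The change was small in size but large beside its error, 0.41 ± 0.07 (adjusted p = 3.03e-05), and 0.30 ± 0.07 of it lay between 0.15 and 0.60 mg/m3 (adjusted p = 0.0117). At 0.15, 0.08 and 0.04 mg/m3 the differences in Muc1 were 0.12, -0.16 and -0.13, none of them called.

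At 1 week Muc1 stood where the 4-week 0.60 mg/m3 group later stood. The 1-week controls read 10.71, 10.67, 10.94, 10.65 and 10.75, and the 0.60 mg/m3 arrays 10.96, 10.62, 10.69, 10.63 and 10.70, a change of -0.03 (95% interval -0.17 to 0.12). The 4-week controls were 0.41 lower than the 1-week controls (a difference of -0.41, adjusted p = 2.08e-06, no overlap), and the difference between times was 0.03 at 0.60 mg/m3 (adjusted p = 0.748). The change at 4 weeks exceeded that at 1 week by 0.44 ± 0.10 (adjusted p = 0.000278). Of the 15 alveolar type 2 cell genes, Muc1 among them, 9 rose and 2 fell at 0.60 mg/m3 for 4 weeks, where the mean of the other 14 on single arrays ran from 11.34 to 11.61 against 11.13 to 11.37 in controls, and its part in the Muc1 result was not tested.

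Muc5ac, the inducible gel-forming mucin, was read near the bottom of the scale. Its values ran from 3.11 to 4.18 on 50 arrays, in a table whose lowest value is 2.22. At 4 weeks the controls read 3.27, 3.37, 3.29, 3.34 and 3.45 and the 0.60 mg/m3 arrays 4.12, 3.88, 3.66, 3.68 and 3.43, of which the last fell within the control range. The change was 0.41 ± 0.11 (adjusted p = 0.00738) and was not called without 0.60 mg/m3 replicate 1 (0.32, adjusted p = 0.0512). At 1 week the controls read 3.54, 3.69, 3.80, 3.51 and 3.54 and the 0.60 mg/m3 arrays 4.18, 3.97, 3.82, 3.81 and 4.00, without overlap, a change of 0.34 ± 0.11 (adjusted p = 0.0069). At 0.15 mg/m3 Muc5ac was 0.17 higher at 1 week (adjusted p = 0.193) and 0.14 higher at 4 weeks (adjusted p = 0.652).

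Spdef separated the exposure times more than the concentrations. Controls read 6.68, 6.46, 6.93, 6.97 and 6.47 at 1 week and 4.87, 5.62, 5.57, 5.73 and 5.56 at 4 weeks, a difference of -1.23 ± 0.17 (adjusted p = 1.25e-08). At each of the 5 concentrations the 4-week arrays lay below all 1-week arrays, with differences between -0.81 and -1.76. After 4 weeks at 0.60 mg/m3 it read 5.95, 6.06, 5.77, 6.14 and 5.82, all above the controls, and the rise of 0.48 ± 0.17 had an adjusted p of 0.0435. That call rested on single arrays: it was lost without control replicate 1 (0.33, adjusted p = 0.212), 3 or 5, and without 0.60 mg/m3 replicate 1, 2, 4 or 5, at adjusted p of 0.0521 to 0.102 in the last 6 cases.

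At 1 week Spdef read 7.15, 7.38, 6.88, 7.42 and 7.25 at 0.04 mg/m3, 0.51 ± 0.17 above controls with overlap (adjusted p = 0.0232). This call was lost without control replicate 2 or 5 or 0.04 mg/m3 replicate 2 or 4 (adjusted p 0.0564 to 0.0668). The 0.04 mg/m3 group was the one farthest from the others on the first principal component of all genes. At 0.60 mg/m3 the arrays read 6.97, 6.77, 7.01, 6.44 and 6.65, 0.07 above controls (95% interval -0.28 to 0.41).

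Levels of other members also differed between the times. Between the 4-week and 1-week controls 1 member was higher (Agr2) and 3 lower (Muc5ac, Muc1 and Spdef), where 73.5% of all genes were called. The corresponding counts were 1 higher and 3 lower at 0.04 mg/m3 (80.4% of genes called), 0 and 7 at 0.08 mg/m3 (60.9%), 0 and 4 at 0.15 mg/m3 (48.5%) and 0 and 1 at 0.60 mg/m3 (53.8%). At 0.60 mg/m3 the member called was Spdef, and the difference in Muc5b was -0.31 (adjusted p = 0.392). Age, time on study and any difference in when the samples were handled cannot be told apart in these comparisons.

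The secretoglobins were read at the top of the scale. Scgb1a1 ran from 13.44 to 13.70 on all 50 arrays and lay within 0.18 log2 units of the highest gene value of its array, and 10 arrays held the same value, 13.6179, so that differences in either direction may be compressed. In the unweighted model of the deposited values it was called in none of 23 contrasts: at 0.60 mg/m3 the difference was -0.08 at 1 week (95% interval -0.17 to 0.01) and -0.07 at 4 weeks (-0.16 to 0.02). The 1-week arrays at 0.60 mg/m3 (13.61, 13.53, 13.61, 13.61 and 13.46) all lay below the controls (13.70, 13.62, 13.63, 13.65 and 13.63), with an adjusted p of 0.105 in a comparison that called 65.1% of genes. Other settings did call Scgb1a1 lower at 0.60 mg/m3. At 1 week these were array weights (-0.09, adjusted p = 0.0419), arrays centred on their median (-0.12, adjusted p = 0.0219) and the mean of the ciliated cell genes as a covariate (-0.10, adjusted p = 0.0203). At 4 weeks they were array weights (-0.09, adjusted p = 0.0493 in limma) and quantile normalization (-0.10, adjusted p = 0.0482).

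Scgb3a1, a secretoglobin of the larger airways, ran from 12.60 to 13.27. At 0.60 mg/m3 the difference was 0.06 at 1 week (95% interval -0.13 to 0.24) and -0.03 at 4 weeks (-0.22 to 0.15), and no change against controls was called. The 4-week controls read 12.60, 13.21, 13.13, 13.11 and 13.01, and the 0.60 mg/m3 arrays 12.97, 13.09, 12.93, 13.04 and 12.87, inside that range. Its call among the 23 contrasts was between the times at 0.08 mg/m3 (-0.21, adjusted p = 0.0429).

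One control array stood low in several members at once. Replicate 1 of the 4-week controls was the lowest of its group in Muc5b (9.01), Bpifb1 (9.64), Agr2 (11.01), Spdef (4.87), Scgb1a1 (13.50) and Scgb3a1 (12.60). It was also the lowest in Muc5ac, by a small margin (3.27, the next array at 3.29). The ciliated marker mean of this array was 9.32, against 9.64 to 9.87 on the other 4 controls. Without it the 4-week change at 0.60 mg/m3 was still called in 4 members (Muc5b, Muc5ac, Muc1 and Bpifb1), and Muc5b rose by 1.59. Of the 15 ciliated markers, 0 were called at 0.15 or at 0.60 mg/m3 for 4 weeks in limma (0 and 6 at an unadjusted p under 0.05), with a median difference of -0.12 at 0.60 mg/m3. At 1 week 7 rose and 4 fell at 0.60 mg/m3, and 7 rose and 5 fell at 0.15 mg/m3. Of all genes, 65.1% and 67.4% were called there. The marker mean was 9.69 at 0.60 mg/m3 for 1 week and 9.63 in controls, so as a covariate it cannot adjust for markers that moved in opposite directions. With this mean as a covariate Muc5b changed by 2.08 at 0.60 mg/m3 for 4 weeks and all 17 called changes kept their call. Of smooth muscle genes 0 of 13 and of heart muscle genes 0 of 12 were called at 0.60 mg/m3 for 4 weeks in limma (1 and 0 at an unadjusted p under 0.05), whereas at 1 week 9 of 13 smooth muscle genes fell and 9 of 12 heart muscle genes rose, and their part in the 1-week changes was not tested.

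Muc5b, Bpifb1, Agr2 and Scgb3a1 varied together from array to array within groups. With the group mean taken off each value, Muc5b correlated over 50 arrays with Bpifb1 (Pearson r = 0.90, Spearman rho = 0.80). Without the 2 arrays whose Muc5b lay farthest from the mean of their group, that r was 0.84. Muc5b also correlated with Agr2 (r = 0.82, rho = 0.81) and Scgb3a1 (r = 0.78, rho = 0.70). It correlated less with Spdef (r = 0.61), Muc5ac (r = 0.34), Scgb1a1 (r = 0.31) and Muc1 (r = 0.24). Bpifb1 and Scgb3a1 had an r of 0.84. Thus Scgb3a1, which was called at no concentration, shared the array-to-array pattern of genes that rose. The ciliated marker mean correlated with Scgb1a1 at 0.75, Bpifb1 at 0.67, Agr2 at 0.66, Muc5b at 0.55, Scgb3a1 at 0.55 and Muc1 at 0.12. Such values share an array's RNA, its normalization and the make-up of its tissue piece, and are given as a description.

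**Figure D3:**
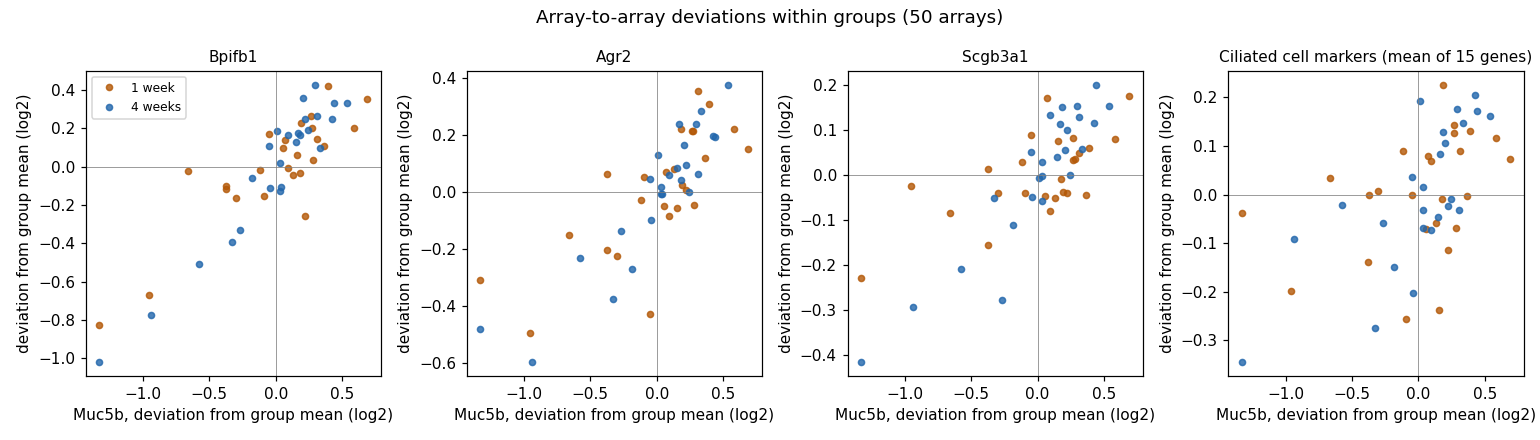
Deviation of each of 50 arrays from its group mean, in log2 units, for Muc5b (horizontal axes) against Bpifb1, Agr2, Scgb3a1 and the mean of 15 ciliated cell genes (vertical axes); colours give 1 and 4 weeks. Pearson r is 0.90, 0.82, 0.78 and 0.55 in turn, and the 4 arrays lowest in Muc5b lie below 0 in every panel.

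By the same measure the genes outside the list most like Muc5b were Gabrp (r = 0.89), Steap1 (r = 0.82) and Clca1 (r = 0.81). Those most like Bpifb1 were Fam81a and Gabrp (0.83 each) and Steap1 (0.82), and those most like Agr2 were Gabrp (0.86), Cfi (0.83) and Sec23b (0.81). Spdef was most like Dpm2 (0.91), Tprn and C10h16orf90 (0.89 each), and Scgb3a1 most like Lgi1 (0.80), C9 (0.79) and Scin (0.77). Scgb1a1 was closest to Odad4 (0.83), Ttll9 and Mtrf1l (0.82 each), Muc1 to Phkg2 (0.75), Trir (0.72) and C10h16orf89 (0.71), and Muc5ac to Dlgap5 (0.65), Prpmp5 (0.62) and Nrg4 (0.58). Gabrp, a subunit of the GABA type A receptor, appeared in the top 3 of 3 members, and it rose by 2.96 at 1 week and 1.32 at 4 weeks at 0.60 mg/m3. It is also on the list of club cell genes described below.

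The genes around these members are given by counts, to be read beside all genes at 0.60 mg/m3, where 17.4% were called at 4 weeks (9.47% higher, 7.90% lower) and 65.1% at 1 week (32.8% higher, 32.3% lower). Of 32 measured genes of mucin glycosylation, folding and secretion, 7 rose and 2 fell after 4 weeks, with a median change of 0.10. The largest rises were P2ry2, the nucleotide receptor that triggers mucin release (1.12 ± 0.12, adjusted p = 1.84e-09), Galnt6, which starts O-glycan chains (0.93 ± 0.13), the sulfhydryl oxidase Qsox1 (0.85 ± 0.14) and the glycan-extending B3gnt7 (0.64 ± 0.18). At 1 week 12 of the 32 rose and 7 fell, where 32.8% of all genes were called higher and 32.3% lower. P2ry2 changed there by -0.41 (adjusted p = 0.00331 in limma), opposite to 4 weeks. Of 5 other measured mucin genes, 1 rose at 4 weeks, the membrane mucin Muc4 (0.62 ± 0.19, adjusted p = 0.0175), which also rose by 1.15 at 1 week. At 1 week 3 of these 5 rose and 0 fell, and their median change was 0.69, beside 0.03 at 4 weeks. The 3 other secretoglobins measured held 0 calls at 0.60 mg/m3 for 4 weeks in limma (1 at an unadjusted p under 0.05).

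Neighbouring secretory genes moved in both directions. Of 30 goblet and secretory cell genes, 5 rose and 7 fell at 0.60 mg/m3 for 4 weeks, with a median of 0.02; at 1 week 12 rose and 4 fell, with a median of -0.02. Lcn2, an iron-chelating defence protein that neutrophils also make, rose by 2.997 ± 0.246 and Bpifb2, a relative of Bpifb1, by 1.67 ± 0.16, while Azgp1 fell by 1.78 and the chloride channel regulator Clca2 fell by 1.09. Lcn2 is also on the list of neutrophil genes, of which 5 of 9 rose and 1 fell, and their part in the Lcn2 result was not tested. Bpifb2 rose by 1.84 at 1 week, a like size to that at 4 weeks.

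Club cell genes other than Scgb1a1 mostly fell. Of 21, 12 fell and 2 rose at 0.60 mg/m3 for 4 weeks, with a median change of -0.48, where 7.90% of all genes were called lower. At 0.60 mg/m3 for 1 week 13 fell and 4 rose, where 32.3% of all genes were called lower. At 0.15 mg/m3 for 4 weeks 8 fell and 2 rose, where 1.58% of all genes were called lower. The glutathione transferase Gsta3 fell by 2.73 (adjusted p = 1.89e-15), the uroplakin Upk1a fell by 2.07 and the nasal and lung cytochrome P450 Cyp2a3 fell by 1.97, with no overlap between the groups in any of them. Gabrp, given above as the gene most like Muc5b outside the members, is on this list too and went the other way, rising at both times. The mean of the list was 8.41 to 8.57 on arrays at 0.60 mg/m3 and 8.89 to 9.11 on the 4-week controls.

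**Figure D4:**
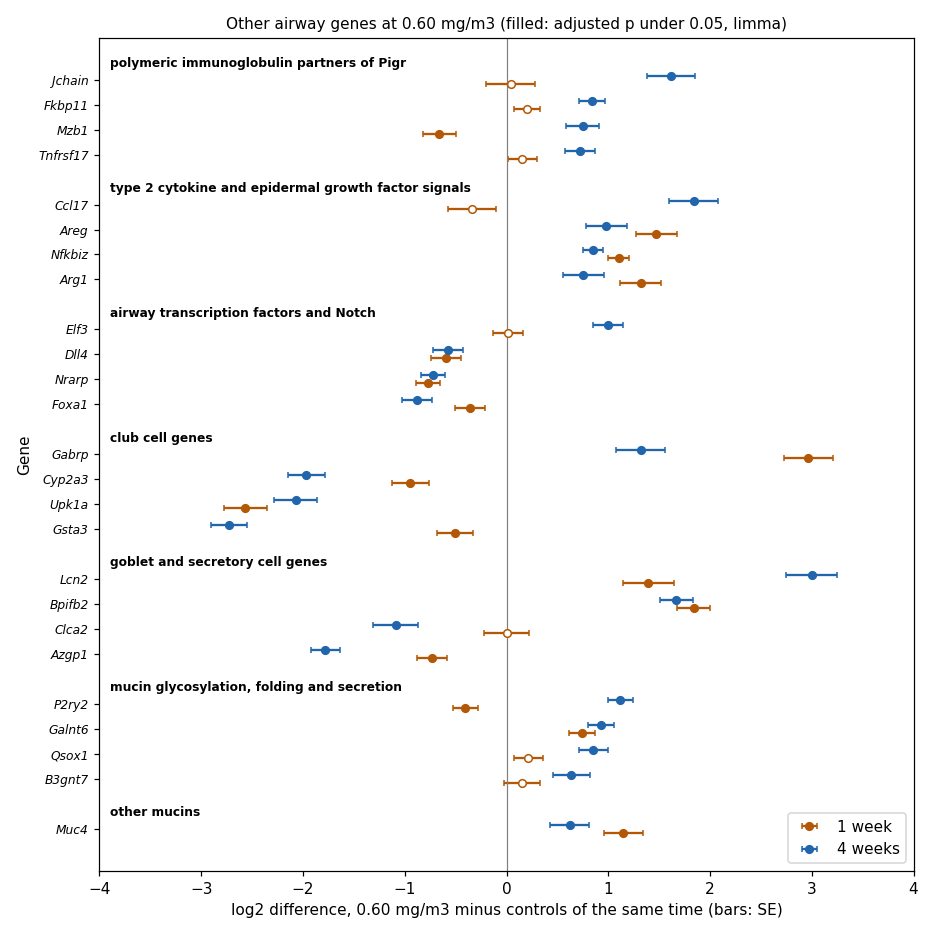
Log2 difference from the controls of the same time at 0.60 mg/m3 for the genes named by rule from 7 lists around the mucins and secretoglobins, with bars of 1 SE; orange is 1 week, blue 4 weeks, and filled points have an adjusted p under 0.05 in limma. Gsta3 lies at -2.73 and Lcn2 at 2.997 at 4 weeks, and P2ry2 and Mzb1 lie on opposite sides of 0 at the different times.

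Genes of signals that are known to act on mucous cells were called about as often as all genes. Of 34 genes listed for type 2 cytokine, epidermal growth factor and other interleukin signals, 6 rose and 2 fell at 0.60 mg/m3 for 4 weeks. Their median was -0.04, and 17.4% of all genes were called there. At 1 week 10 rose and 8 fell, where 65.1% of all genes were called. The other interleukin genes listed included Il1b, Il6 and Il17a, and Nfkbiz was listed with these. The chemokine Ccl17 rose by 1.84 ± 0.24 at 4 weeks and had a difference of -0.34 at 1 week (adjusted p = 0.207), whereas Areg, a ligand of the epidermal growth factor receptor, rose by 0.98 at 4 weeks and 1.47 at 1 week. Nfkbiz rose by 0.85 and 1.10 and arginase Arg1 by 0.75 and 1.32 at the same times. Of 34 airway transcription factors and Notch genes, 2 rose and 5 fell at 4 weeks and 10 rose and 17 fell at 1 week. Those called at 4 weeks included the epithelial factor Elf3 (1.00 ± 0.15), the pioneer factor Foxa1 (fell by 0.88), and the Notch target Nrarp and ligand Dll4 (fell by 0.72 and 0.57).

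Pigr carries dimeric immunoglobulin A across the epithelium and was not analysed here, but its partners were. Of 12 genes of antibody-secreting cells and polymeric immunoglobulin, 5 rose and 0 fell at 0.60 mg/m3 for 4 weeks, with a median of 0.55, where 9.47% of all genes were called higher. Jchain, the chain that joins immunoglobulin units, rose by 1.61 ± 0.24 (adjusted p = 1.35e-06), Fkbp11 by 0.84, Mzb1 by 0.75 and Tnfrsf17 by 0.72. At 1 week 4 of the 12 rose and 2 fell, the difference in Jchain was 0.04 (adjusted p = 0.9) and Mzb1 fell by 0.66 (adjusted p = 0.000419). The lower concentrations held calls too: 3 rose at 0.04, 2 at 0.08 and 1 at 0.15 mg/m3 for 4 weeks and 0 fell. Of all genes, 8.29%, 5.67% and 1.92% were called higher in these comparisons. The list's mean was 7.18, 7.09 and 6.90 at these concentrations, beside 6.80 in controls and 7.29 at 0.60 mg/m3. T cell genes were called higher in the same groups, 7 of 15 at 0.60, 1 at 0.15, 3 at 0.08 and 12 at 0.04 mg/m3 for 4 weeks, and B cell genes 1, 0, 6 and 6 of 8; their part in the result was not tested.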

How the data were processed

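Expression was measured on 50 one-colour arrays. The authors deposited log2 intensities, made with RMA in Partek per the submitters' processing notes; no source used here gives versions, scan dates or which arrays were normalized together. Probe sets with 1 gene symbol in the platform's gene table were used (19063 of 31042), and the probe set with the highest mean stood for a gene (13438 genes). Values were not transformed or filtered again. Group means (10 groups) were fitted gene by gene (limma 3.58.1, R 4.3.3; eBayes moderation), tested on simulated data, with two-sided tests and Benjamini-Hochberg adjustment over all genes of a contrast. Intervals (95%) use 40 residual degrees of freedom. The number of arrays limits the precision. The labels give separate rats but no batches. The members and the gene lists were chosen with earlier results of these data known. All measured members are described, with up to 4 called genes per list by the size of change at 0.60 mg/m3 for 4 weeks, and the 3 genes most correlated with each member (symbols starting with LOC or RGD left out). Alternatives were array weights, filters, centring, quantile normalization, an intensity trend, other probe set rules, a replicate block, fewer arrays and the omission of each array. The ciliated covariate was chosen after seeing the data.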

Additional observations from a re-analysis of the deposited data

Results flagged for a closer look

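In 11 of 80 groups of 5 arrays (8 genes in 10 groups), 1 array stood far from the others by Dixon's criterion. Chance flags about 1 in 20 groups of independent, normally spread values. The genes here share arrays, and several flags fell on the same array, so the count is not set against that rate. Replicate 1 of the 4-week controls was low in Muc5b (9.01, the next array at 10.56), Bpifb1 (9.64, next 10.85) and Spdef (4.87, next 5.56). Replicate 1 of 0.15 mg/m3 for 1 week was low in Muc5b (11.28, next 12.29) and Bpifb1 (11.13, next 11.89). Muc1 had a high array at 0.60 mg/m3 for 1 week (10.96) and at 0.08 mg/m3 for 1 week (10.74), both replicate 1. Agr2 had a low array at 0.60 mg/m3 for 1 week (12.09). Scgb1a1 had a low array at 0.04 mg/m3 for 1 week (13.44) and at 0.08 mg/m3 for 4 weeks (13.61). In the latter group the other values were all 13.6179, so that any different value would be flagged. Scgb3a1 had a high array at 0.60 mg/m3 for 1 week (13.27).

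From the lowest concentration to the highest, 12.0%, 44.4%, 56.8% and 56.7% of all genes were called for a difference between the times. Among the members, the change from controls differed between 4 weeks and 1 week in 5 of 32 tests of the difference in limma. It was smaller at 4 weeks for Agr2 at 0.08 (-1.02), 0.15 (-0.89) and 0.60 mg/m3 (-1.01) and for Bpifb1 at 0.08 mg/m3 (-0.83), and larger at 4 weeks for Muc1 at 0.60 mg/m3 (0.44). In Agr2 the 4-week controls were 0.68 above the 1-week controls, and in Muc1 they were lower, with a difference of -0.41.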

How the results depend on the processing

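Of the 17 called changes, 13 kept their call under every setting in which they were tested other than leaving out an array or asking for a change of at least 1.5-fold, 12 kept it when each array was left out in turn, and 0 reversed. The minimum of 1.5-fold removed 7 of the 17: Muc1 and Agr2 at 0.60 mg/m3 for 4 weeks, Muc5ac and Spdef there, Muc5ac at 0.60 mg/m3 for 1 week, Bpifb1 at 0.08 and Spdef at 0.04 mg/m3 for 1 week. Without the dimmest 25% of genes the 2 calls of Muc5ac were not tested, and 5 and 3 of 7 members were called at 0.60 mg/m3 for 4 weeks and 1 week. With that minimum included, 9 changes kept their call. At 0.60 mg/m3 for 4 weeks the count of 6 members fell to 2 when a change of at least 1.5-fold was also asked for, and ran from 4 to 6 with 1 array left out. At 0.15 mg/m3 for 4 weeks the count of 1 became 2 (Agr2 added) with the ciliated covariate or with the model of the 2 groups alone, and stayed at 1 with any array left out. With the 4-week controls as the reference, the 1-week count at 0.15 mg/m3 rose from 3 to 6. Without 1 array the 1-week counts were 4 at 0.60 mg/m3 and 3 to 4 at 0.15 mg/m3. The other calls lost outside leave-one-out were Spdef at 0.04 mg/m3 for 1 week with the 25 arrays of that time alone (0.51, adjusted p = 0.0694 in limma), Bpifb1 at 0.08 mg/m3 for 1 week with array weights (0.47, 0.0516) or quantile normalization (0.48, 0.0533), Agr2 at 0.08 mg/m3 for 1 week against the 4-week controls, and Spdef at 0.60 mg/m3 for 4 weeks with centred arrays (0.44, 0.0553) or quantile normalization (0.43, 0.066); the cause was not tested. Same-numbered arrays did not pair (correlations of deviations from -0.49 to 0.39). With a replicate block the member counts were 6 and 1 at 4 weeks and 4 and 3 at 1 week (0.60 and 0.15 mg/m3), the same as without, and 2284 rather than 2334 of all genes were called at 0.60 mg/m3 for 4 weeks. Centring moved the median of all genes by at most 0.07.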

Other observations

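Of 47 changes that the unweighted model of the deposited values did not call, 19 were called under some other setting. At the low concentrations for 4 weeks, with array weights, Agr2 was called lower at 0.04 mg/m3 (-0.43, adjusted p = 0.00409 in limma) and at 0.08 mg/m3 (-0.40, adjusted p = 0.0322), Bpifb1 at 0.04 mg/m3 (-0.48, adjusted p = 0.0186) and Muc1 at 0.04 mg/m3 (-0.15, adjusted p = 0.00692). Agr2 at 0.04 mg/m3 was also called lower without weights when control replicate 1 was left out (-0.45, adjusted p = 0.0408), and Muc1 at 0.08 mg/m3 with centred arrays (-0.22, adjusted p = 0.0442). The heart muscle mean was 9.20 to 9.76 on the 0.04 mg/m3 arrays and 6.77 to 8.05 on the controls of that time, without overlap, and smooth muscle means were 8.68 to 9.12 against 7.65 to 7.98; their part in these values was not tested.

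The remaining values were at 1 week or at higher concentrations. At 1 week Muc1 was called lower at 0.08 mg/m3 with array weights (-0.16, adjusted p = 0.0164 in limma), with quantile normalization (-0.18, adjusted p = 0.0287) or without exposed replicate 1 (-0.17, adjusted p = 0.048). Muc5ac was called higher at 0.15 mg/m3 for 1 week with array weights (0.26, adjusted p = 0.0215) or without exposed replicate 1 (0.25, adjusted p = 0.0488). Agr2 was called higher at 0.15 mg/m3 for 4 weeks with the ciliated covariate (0.39, adjusted p = 0.0399) or with the 2 groups alone (0.40, adjusted p = 0.0476). Scgb1a1 was called lower at 0.60 mg/m3 at both times under the settings given with its values. With the 4-week controls as the reference, 11 further changes at 1 week were called, 10 higher (Muc1 at all concentrations, Spdef from 0.08 mg/m3 upward, Muc5ac at 0.08 and 0.15 and Muc5b at 0.08 mg/m3) and 1 lower (Agr2 at 0.04 mg/m3).

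Neuropeptide genes of the neuroendocrine list, which share a calcitonin family origin, moved apart after 4 weeks at 0.60 mg/m3. Calcb rose by 1.28 ± 0.29 and Calca fell by 1.06, with no overlap between exposed and control arrays in either. At 1 week Calcb rose by 2.35 and Calca by 0.45. Of the 9 genes of that list, 1 rose and 5 fell at 4 weeks.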
